A study of Mus musculus with 12 samples.

Results

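Fibronectin (Fn1), the thrombospondins (Thbs1 to Thbs4), the CCN proteins (Ccn1 to Ccn3), periostin (Postn) and vitronectin (Vtn) are secreted proteins that join the extracellular matrix to receptors on the cell surface. These 10 genes were taken from the deposited count table by symbol, and all 10 were found among its 56860 named genes. RNA-seq was performed on primary oligodendrocytes (OLs) from C57BL/6J mice, labeled as medial prefrontal cortex and described in the methods as O4+ cells from the cortex of newborn mice, grown with PDGF-AA and then differentiated in medium with insulin, triiodothyronine and ciliary neurotrophic factor. The siEgr2 group (6 libraries) received an interfering RNA against the transcription factor Egr2, which the methods also describe as a plasmid, and the siNC group (6 libraries) a scrambled siRNA, and both were harvested 48 h later. The labels do not say whether the libraries of a group came from separate cultures or litters, so p-values measure the spread between these libraries, which may be technical.

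Fibronectin is laid down by cells as fibrils and is bound by integrins, which are paired adhesion receptors, and by syndecans. Thrombospondins are multimeric matrix proteins that bind calcium, CD36, CD47 and integrins. Thrombospondins secreted by astrocytes are known to promote synapse formation, and Thbs1 can release TGF-beta from its latent complex. CCN proteins are small, modular and rich in cysteine. Ccn1 and Ccn2 are standard targets of the transcription coactivators YAP and TAZ, which act through the TEAD factors, and of serum response factor (SRF). Periostin binds integrins and is typical of fibroblasts, while vitronectin is a plasma and matrix protein that in brain marks pericytes. In demyelinated lesions, fibronectin deposits are known to slow OL differentiation.

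Library depth was 28682946 to 39383014 counts in siNC and 8034251 to 16683677 in siEgr2. Counts on the ribosomal RNA gene Rn18s-rs5 made up 0.142% to 1.05% of the siNC and 10.5% to 16.5% of the siEgr2 libraries. Depth and ribosomal RNA share cannot be told apart from treatment. The targeted gene, Egr2, averaged 5.35 ± 1.27 CPM in siNC and 3.77 ± 1.01 CPM in siEgr2 (SD, n = 6 each), a log2 fold change of -0.51 with overlapping ranges that did not pass the test (edgeR adjusted p = 0.0981, exact permutation p = 0.0433). Levels are given as CPM, the read counts of a gene scaled to a common library total, on the TMM scale, which makes libraries of unlike depth comparable. For 16600 genes, edgeR's quasi-likelihood test set siEgr2 against siNC, with Benjamini-Hochberg adjustment over all of them. To be called, a gene needed both an adjusted p below 0.05 and a log2 fold change of more than 0.5 in size.

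Promoters are shown because several of these genes were lower together in siEgr2. The RefSeq promoter table (GRCm38.p6, 250 bases before to 50 after each start) held 7 promoters for 6 of the 10 genes. Those of Fn1, Thbs1, Ccn2 and Ccn3 were not analyzed here. The first 3 sequences belong to genes called lower (Ccn1, Thbs2 and Vtn), and the last is the downstream of 2 listed starts of Postn, which was not called. Capitals mark the TEAD core CATTCC on either strand (GGAATG on the other) and TATAAA on the printed strand.
Ccn1 promoter, chr3:145649936-145650235, minus strand: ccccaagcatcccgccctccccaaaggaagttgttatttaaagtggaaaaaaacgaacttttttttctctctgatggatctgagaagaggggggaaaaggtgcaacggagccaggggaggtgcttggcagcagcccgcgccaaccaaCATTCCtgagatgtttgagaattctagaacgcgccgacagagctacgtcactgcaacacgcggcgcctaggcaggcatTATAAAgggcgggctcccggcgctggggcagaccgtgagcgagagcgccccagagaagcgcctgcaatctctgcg
Thbs2 promoter, chr17:14694213-14694512, minus strand: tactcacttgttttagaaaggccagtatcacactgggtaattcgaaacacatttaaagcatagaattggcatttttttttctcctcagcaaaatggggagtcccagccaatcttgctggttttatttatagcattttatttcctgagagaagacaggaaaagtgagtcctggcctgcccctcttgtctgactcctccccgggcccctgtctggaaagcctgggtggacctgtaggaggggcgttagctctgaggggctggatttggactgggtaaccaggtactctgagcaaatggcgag
Vtn promoter, chr11:78498870-78499169, plus strand: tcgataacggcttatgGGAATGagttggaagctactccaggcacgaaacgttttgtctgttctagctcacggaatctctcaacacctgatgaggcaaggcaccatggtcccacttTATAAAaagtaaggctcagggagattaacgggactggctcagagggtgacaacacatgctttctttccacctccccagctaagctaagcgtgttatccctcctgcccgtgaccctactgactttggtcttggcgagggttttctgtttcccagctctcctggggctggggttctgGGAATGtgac
Postn promoter, chr3:54360857-54361156, plus strand: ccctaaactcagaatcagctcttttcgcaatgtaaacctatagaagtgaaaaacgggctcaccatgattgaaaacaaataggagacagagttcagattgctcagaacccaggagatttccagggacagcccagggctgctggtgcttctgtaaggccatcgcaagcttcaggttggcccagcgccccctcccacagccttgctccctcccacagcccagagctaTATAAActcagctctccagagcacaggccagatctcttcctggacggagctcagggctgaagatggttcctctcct

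The Ccn1 promoter held a TEAD core that begins 103 bases upstream of the start and a TATAAA that begins 25 bases upstream. The Vtn promoter held TEAD cores on the other strand, one that begins 234 bases upstream and one at position 41 after the start, and a TATAAA that begins 135 bases upstream. The Thbs4 promoter held a pair of overlapping TEAD cores, and those of Thbs2, Thbs3 and Postn held none. The printed promoter of Postn, which was not called, held a TATAAA that begins 26 bases upstream. Those of Thbs2 and Thbs3, both called lower, held no TATAAA. Over all 32851 promoters of the table, 14.7% held a TEAD core and 8.32% a TATAAA. The EGR consensus GCGNGGGCG, searched on both strands, and the CArG box, the site of SRF, were in none of the 7 promoters. They occur in 5.55% and 1.63% of all promoters. A match is only a run of letters in these windows, and no binding was measured.

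Of the 10 genes, 9 had enough counts to be tested, and Thbs4 did not. All 9 had a negative log2 fold change in siEgr2. Of these, 5 were called lower (Thbs2, Thbs3, Ccn1, Ccn3 and Vtn) and 0 higher. Another 2, Thbs1 and Ccn2, passed the adjusted p but fell by less than the fold change threshold, and Fn1 and Postn did not pass. Over all tested genes, 7.72% were called, 2.63% as higher and 5.08% as lower, and 19.9% passed by adjusted p without the fold change threshold. The median log2 fold change was -0.64 over the 9 genes and 0.0046 over all genes tested. In 5 of the 9 genes every siEgr2 library lay below every siNC library, where 11.2% of all tested genes had groups that did not overlap in one direction or the other. The genes were listed with earlier results of these data known, so these counts describe the genes and test nothing about the list.

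**Figure D1:**
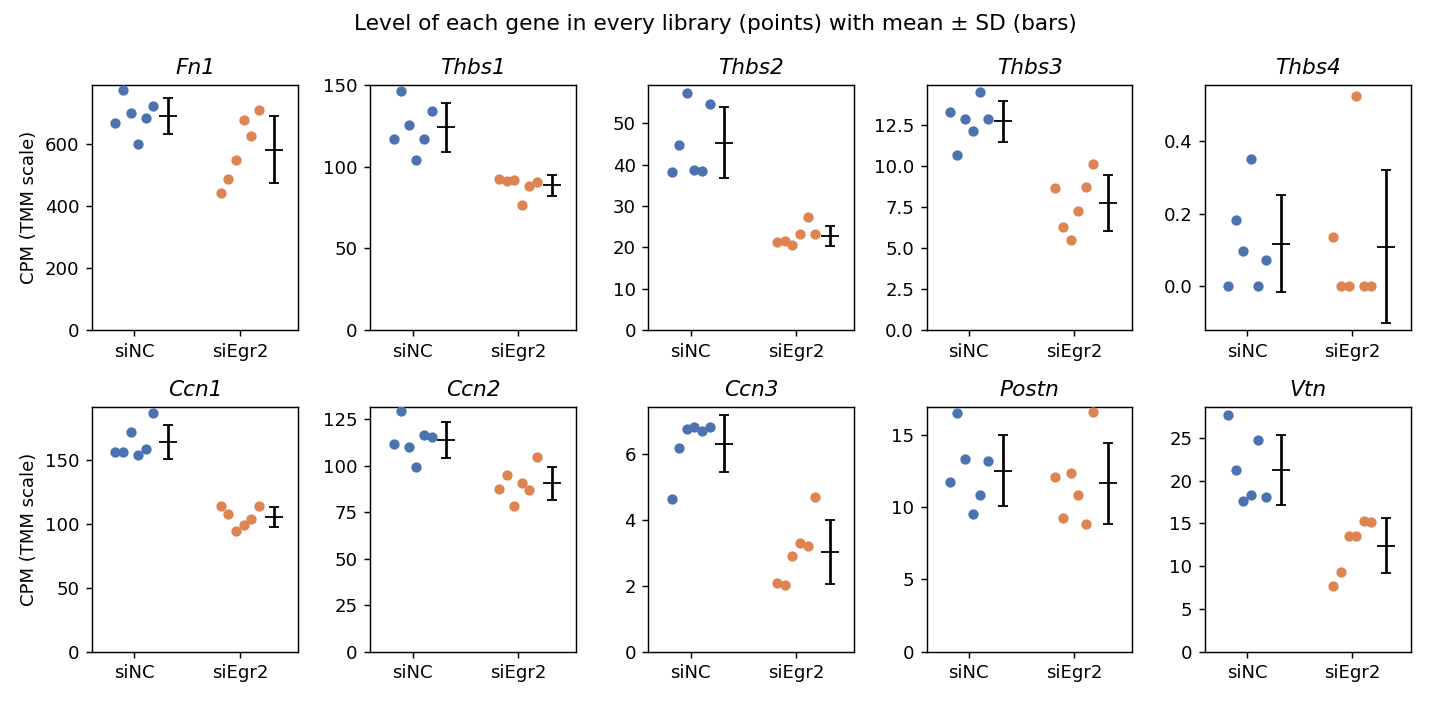
Level of each of the 10 genes in CPM on the TMM scale (vertical axes, one scale per gene) in the siNC and siEgr2 groups. Points are the 6 libraries of a group and bars the mean ± SD. The groups are fully apart for Thbs1, Thbs2, Thbs3, Ccn1 and Vtn, while Postn has nearly the same range in both, and Thbs4 is at or close to 0 in every library.

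Fn1 (chr1:71585520-71653200) had the highest CPM of the 10 genes. In siNC its level was at lowest 600.1, in the median 690.5 and at highest 772 CPM. In siEgr2 it ran from 442 over a median of 586 to 710 CPM. The siEgr2 libraries at 442, 487 and 548 CPM lay below every siNC library, and those at 625, 675 and 710 CPM lay inside the siNC range. The mean went from 690.1 ± 57.7 to 581 ± 107 CPM (SD, n = 6 each), with the larger spread in siEgr2. The log2 fold change was -0.25 (standard error 0.115, 95% interval -0.50 to 0.0035, edgeR adjusted p = 0.162), on 4881 to 9033 counts in each siEgr2 library. Reads were counted per gene, so the spliced forms of fibronectin were not separated.

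Thbs1 (chr2:118111876-118127133), the thrombospondin best known for inhibiting angiogenesis, ran from 104 over 121 to 147 CPM in siNC, given as lowest, median and highest. In siEgr2 it ran from 76.3 over 91.0 to 92.8 CPM. The groups did not overlap. An exact permutation test on log2 of CPM plus 0.5, two-sided as are all such tests here, gave p = 0.00216, the smallest that 6 against 6 libraries allow. The mean fell to 71.4% of the siNC mean. The log2 fold change of -0.49 (standard error 0.0732, edgeR adjusted p = 0.000171) stopped just short of the threshold of 0.5. Under 8 of 23 alternatives, including the adjusted p alone, Thbs1 was called, and its log2 fold change ran from -0.67 to -0.43.

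Thbs2 (chr17:14665500-14694235), which like Thbs1 forms trimers and inhibits angiogenesis, ran from 38.1 over 41.7 to 57.5 CPM in siNC. Its siEgr2 levels ran from 20.4 over 22.3 to 27.3 CPM, so the highest of them lay well under the lowest siNC library. Its mean of 45.3 ± 8.68 CPM in siNC fell to 22.8 ± 2.42 CPM (SD, n = 6 each). This was a log2 fold change of -0.996 (standard error 0.114, edgeR adjusted p = 1.33e-05), and the exact permutation p was 0.00216. Within a library, there were 30.5 to 45.8 counts of Thbs2 for every 100 of Thbs1 in siNC and 22.2 to 30.9 in siEgr2. This ratio does not depend on the scaling of libraries, and its ranges touched at 1 pair of libraries.

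Thbs3 (chr3:89215180-89226837) belongs to the thrombospondins that form pentamers and lack the anti-angiogenic repeats. It ran from 10.7 over 12.9 to 14.5 CPM in siNC and from 5.50 over 7.96 to 10.1 CPM in siEgr2. The groups did not overlap, although the highest siEgr2 library came close to the lowest siNC library. The log2 fold change was -0.73 (standard error 0.139, edgeR adjusted p = 0.00128, exact permutation p = 0.00216). Thbs3 overlaps Mtx1, a mitochondrial import gene on the opposite strand, and whether reads were counted by strand is not given in the sources used here. Mtx1 had a log2 fold change of 0.18 and was not called (edgeR adjusted p = 0.134). The genes that overlap Fn1, Ccn2 and Thbs1 were low, at 1.09 CPM for Apol7d, 0.965 CPM for Gm15270 and at most 2 counts for Gm29233 in siNC.

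Thbs4 (chr13:92751590-92794818), another pentameric thrombospondin, was scarcely detected, with at most 12 counts in a siNC library and 7 in a siEgr2 library. It had no counts in 2 siNC and 4 siEgr2 libraries. At this depth no difference was detectable (exact permutation p = 0.838).

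Ccn1 (chr3:145646976-145649981), an immediate early matrix protein, gave the smallest adjusted p of the 10 genes. Its levels in siNC ran from 155 over 158 to 188 CPM. In siEgr2 they ran from 94.9 over 106 to 114 CPM. The groups were thus clearly apart. Its mean of 164 ± 13.0 CPM in siNC fell to 106 ± 7.87 CPM (SD, n = 6 each). The log2 fold change was -0.64 (standard error 0.0593, edgeR adjusted p = 1.46e-06, exact permutation p = 0.00216), and Ccn1 was called under all 23 alternatives run.

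Ccn2 (chr10:24595442-24598683), the connective tissue growth factor, ran from 99.2 over 114 to 129 CPM in siNC. In siEgr2 it ran from 78.6 over 89.2 to 104 CPM. Of the 6 siEgr2 libraries, 5 lay below every siNC library, and 1, at 104 CPM, lay above the lowest of them. The log2 fold change of -0.33 (standard error 0.0687, 95% interval -0.48 to -0.18) passed the adjusted p (0.00252, edgeR) and not the fold change threshold. Its exact permutation p was 0.00433. For every 100 counts of Ccn1 a library held 61.6 to 82.5 counts of Ccn2 in siNC and 76.3 to 91.6 in siEgr2, ranges that overlap.

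Ccn3 (chr15:54745702-54754039), which is known to oppose Ccn2 in several tissues, was lower per length than Ccn1 and Ccn2. In siNC it ran from 4.62 over 6.70 to 6.82 CPM. In siEgr2 it ran from 2.03 over 3.05 to 4.68 CPM, and only the highest siEgr2 library reached the lowest siNC library. The log2 fold change was -1.07 (standard error 0.194, edgeR adjusted p = 0.000857, exact permutation p = 0.00433), on 25 to 48 counts per siEgr2 library. The mean fell to 48.1% of the siNC mean, the lowest share among the tested genes of the group.

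Postn (chr3:54361109-54391037) ran from 9.54 over 12.5 to 16.6 CPM in siNC and from 8.84 over 11.5 to 16.6 CPM in siEgr2. The ranges of the groups covered each other almost fully. Its log2 fold change of -0.10 had a 95% interval from -0.43 to 0.23 (edgeR adjusted p = 0.71, exact permutation p = 0.519). A change of the size seen in Thbs2 lies outside this interval. The estimate moved to -0.005 without siNC replicate 2, to -0.22 without siEgr2 replicate 6, to -0.26 with thinned libraries and to -0.29 with library size only, and Postn was called under none of the 23 alternatives.

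Vtn (chr11:78499091-78502324) ran from 17.6 over 19.8 to 27.7 CPM in siNC. In siEgr2 it ran from 7.73 over 13.5 to 15.2 CPM, and no siEgr2 library reached the siNC range. Its siNC mean of 21.3 ± 4.12 CPM fell to 12.4 ± 3.16 CPM (SD, n = 6 each), a log2 fold change of -0.79 (standard error 0.17, edgeR adjusted p = 0.00393, exact permutation p = 0.00216).

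**Figure D2:**
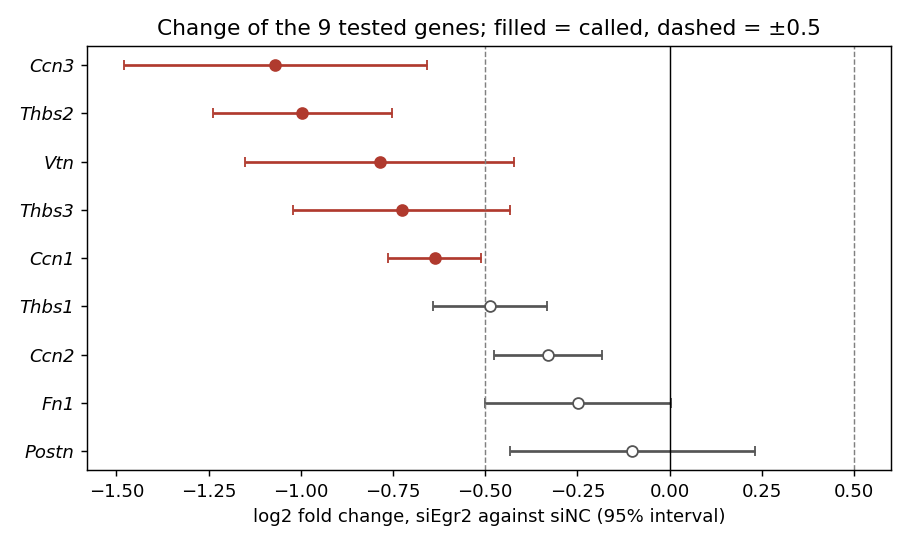
Log2 fold change of siEgr2 against siNC (horizontal axis) for the 9 tested genes, with 95% intervals from edgeR's quasi-likelihood fit. Filled points were called, and dashed lines mark the threshold of 0.5 in both directions. All 9 estimates lie below 0, from -0.10 for Postn to -1.07 for Ccn3, and the intervals of Fn1 and Postn reach 0.

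Per kilobase of annotated exon, a scale on which genes can be compared, Ccn1 was the highest of the 10 genes in siNC at 81.5 ± 6.43 CPM per kb (SD, n = 6). Fn1 followed at 59.0 ± 4.94, Ccn2 at 39.8 ± 3.43, Thbs1 at 20.4 ± 2.43, Vtn at 10.5 ± 2.03 and Thbs2 at 6.48 ± 1.24 CPM per kb. Each of these 6 lay above the next over all siNC libraries. Thbs3 (2.64), Ccn3 (2.20) and Postn (1.44 CPM per kb) came next, and neighbors in this trio overlapped. Thbs4 was last at 0.0356 CPM per kb. In siEgr2, Ccn1 (52.4 ± 3.90) and Fn1 (49.7 ± 9.12 CPM per kb) overlapped, as did Vtn and Thbs2, and Postn (1.34) stood above Ccn3 (1.06 CPM per kb) in the mean, with overlapping ranges. The exon length joins all annotated spliced forms, so genes with many forms, such as Fn1, are set lower than their main form would be.

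**Figure D3:**
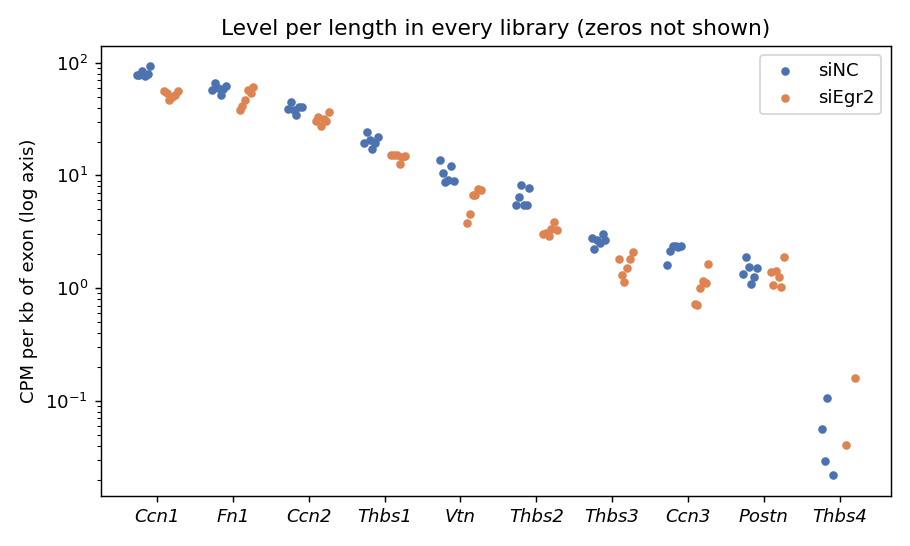
CPM per kb of annotated exon (vertical axis, log scale) for the 10 genes in order of their siNC mean, with 1 point per library and libraries without counts not drawn. The siNC points step down from Ccn1 to Thbs2 without overlap between neighbors. In siEgr2 the ranges of Ccn1 and Fn1 overlap, and the points of Fn1 spread more widely.

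Libraries of a group also differed among themselves. On the scale of log2 CPM centered within each group over the 12 libraries, Fn1 had its highest Pearson r with Ccn3 (0.76) and Vtn (0.69), and lower values with Thbs1 (0.075) and Ccn1 (-0.021). The groups differed in these values, so the pooled r describes neither. Within the 6 siNC libraries, r with Fn1 was 0.98 for Thbs1, 0.94 for Ccn2 and 0.94 for Postn, but 0.025 for Ccn3 and 0.00084 for Vtn. Within the 6 siEgr2 libraries it was 0.93 for Ccn3 and 0.91 for Vtn, but -0.56 for Thbs1, 0.41 for Ccn2 and 0.30 for Postn. The difference between the groups was not tested. Ccn1 and Vtn gave the lowest value of the 36 pairs, at -0.47. These values describe libraries that differ in depth and were given no test. Of all tested genes, the 5 most like Fn1 by this measure were Tgfbi (r = 0.96), a secreted relative of periostin, Glis1 (0.95), a zinc finger transcription factor, Pgf (0.93), placental growth factor, Mroh1 (0.93) and Aldh1a2 (0.93), which makes retinoic acid. Within siNC alone their r ran from 0.67 for Aldh1a2 to 0.96 for Pgf and Tgfbi, and within siEgr2 alone from 0.94 for Pgf to 0.99 for Mroh1 and Glis1. None of the 5 was called between the groups. Glis1 and Pgf rest on few counts, with 4 to 13 and 10 to 33 counts per siEgr2 library.

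The closest relatives of these genes were Comp, the fifth thrombospondin, Ccn4, Ccn5, Ccn6 and Tgfbi, and 3 of the 5 were tested. Both tested CCN relatives were called lower. Ccn5, which lacks the carboxy-terminal domain of the other CCN proteins, fell from 15.6 ± 4.65 to 5.16 ± 1.98 CPM (SD, n = 6 each), a log2 fold change of -1.59 (standard error 0.252, edgeR adjusted p = 0.000492). Ccn4 fell from 7.98 ± 1.33 to 3.86 ± 1.64 CPM, a log2 fold change of -1.04 (edgeR adjusted p = 0.00386). Neither gene's groups overlapped. Tgfbi had a log2 fold change of 0.18 (edgeR adjusted p = 0.34). Comp and Ccn6 were too low to be tested.

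Among 22 cell-surface receptors for these proteins, 21 were tested, 6 were called lower and 1 higher, and the median log2 fold change was -0.13. Syndecan Sdc4, a coreceptor for fibronectin, fell from 253 ± 14.8 to 134 ± 15.3 CPM (log2 fold change -0.92, edgeR adjusted p = 1.08e-07). Itga5, the alpha chain of the main fibronectin receptor, fell from 40.5 ± 6.47 to 21.7 ± 2.16 CPM (-0.90, adjusted p = 9.97e-06 in edgeR). Itga6 (-0.82) and Itga3 (-0.75), alpha chains of laminin receptors of which Itga6 also binds CCN proteins, were lower as well. The other called genes, named after their values were seen, were Itgb5 (-0.68), a partner of Itgav in a vitronectin receptor, Sdc2 (-0.55) and Cacna2d1 (0.50), a calcium channel subunit that binds thrombospondins. Cacna2d1 stood at the threshold and lost its call in 10 of 23 alternatives. Of the 5 receptors that passed the adjusted p alone, Itga4 (0.37), Itga8 (0.33) and Sdc3 (0.17) had positive log2 fold changes, and Lrp1 (-0.28) and Itgb1 (-0.12), the common beta chain, negative ones. Itga8 and Sdc3 had groups that did not overlap, and when only library size was used for scaling Sdc3 turned to -0.016 and Itga4 and Itga8 moved to 0.18 and 0.15 and no longer passed (edgeR adjusted p = 0.163 and 0.172). Itgav, like the preceding 5 named after the values were seen, ranged too widely in siNC (173 ± 66.2 CPM) for its log2 fold change of 0.65 to pass (edgeR adjusted p = 0.0597). Itgb6 had 0 counts in all 12 libraries.

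Because Ccn1 and Ccn2 are YAP and TAZ targets, 20 other genes of a common target signature were examined. Of 19 tested, 6 were called lower and 0 higher, another 5 passed the adjusted p alone, and the median log2 fold change was -0.21. Igfbp3, which binds insulin-like growth factors, fell from 467 ± 108 to 247 ± 32.5 CPM (log2 fold change -0.92, edgeR adjusted p = 0.00117). Foxf2, a transcription factor of pericytes and fibroblasts, had a log2 fold change of -0.81, Arhgef17 of -0.71, and the kinase Nuak2 of -0.65. Foxf2 lost its call with libraries thinned to the smallest total (edgeR adjusted p = 0.0844). Myof (-0.64) and Axl (-0.60) were also called. The widely used targets Amotl2 (-0.019) and Lats2 (0.029) did not pass the test, and with library size only as the scaling they moved to -0.20 (edgeR adjusted p = 0.00241) and -0.15. Ankrd1 was too low to be tested. Of the 5 that passed the adjusted p alone, Ccdc80 (-0.49), Crim1 (-0.45), Tgfb2 (-0.45) and Fjx1 (-0.18) were lower and Nt5e, a cell-surface nucleotidase, was higher (0.47, edgeR adjusted p = 0.00115), with groups that did not overlap. With library size only, Ccdc80 (-0.67), Crim1 (-0.64) and Tgfb2 (-0.64) met both thresholds, and 9 genes of the list were called. Fjx1 then stood at -0.36 and Nt5e at 0.28. The genes of this list named beyond Igfbp3, Foxf2, Arhgef17 and Nuak2 were chosen after their values were seen.

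Of 11 regulators in the TEAD and SRF branches, all were tested and 4 were called, all lower. Yap1 fell from 47.1 ± 3.67 to 28.2 ± 3.52 CPM (log2 fold change -0.74, edgeR adjusted p = 9.24e-06) and Wwtr1, which encodes TAZ, from 72.6 ± 8.11 to 48.5 ± 3.43 CPM (-0.58, adjusted p = 3.72e-05 in edgeR). Mrtfb, an actin-responsive coactivator of SRF, had a log2 fold change of -0.93 (edgeR adjusted p = 1.95e-06), and Tead2 one of -0.69 (edgeR adjusted p = 0.0233). Tead2 was lost in 3 of 23 alternatives, among them the fits without siEgr2 replicate 1 (edgeR adjusted p = 0.054) and without siEgr2 replicate 3 (edgeR adjusted p = 0.0515). Srf (-0.13), Mrtfa (-0.034) and Lats1 (0.059) did not pass. With library size only they moved to -0.31, -0.22 and -0.12, and Srf and Mrtfa then passed the adjusted p (edgeR, 0.00803 and 0.0373). Tead1 had an estimate of -0.94 with wide spread in siNC (57.8 ± 31.3 CPM) and did not pass (edgeR adjusted p = 0.114). With library size only, Tead1 (-1.13, edgeR adjusted p = 0.038) and Tead3 (-0.56, edgeR adjusted p = 0.0165) met both thresholds, and 6 regulators were called. The regulators beyond the 4 called in the main fit were named after their values were seen.

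**Figure D4:**
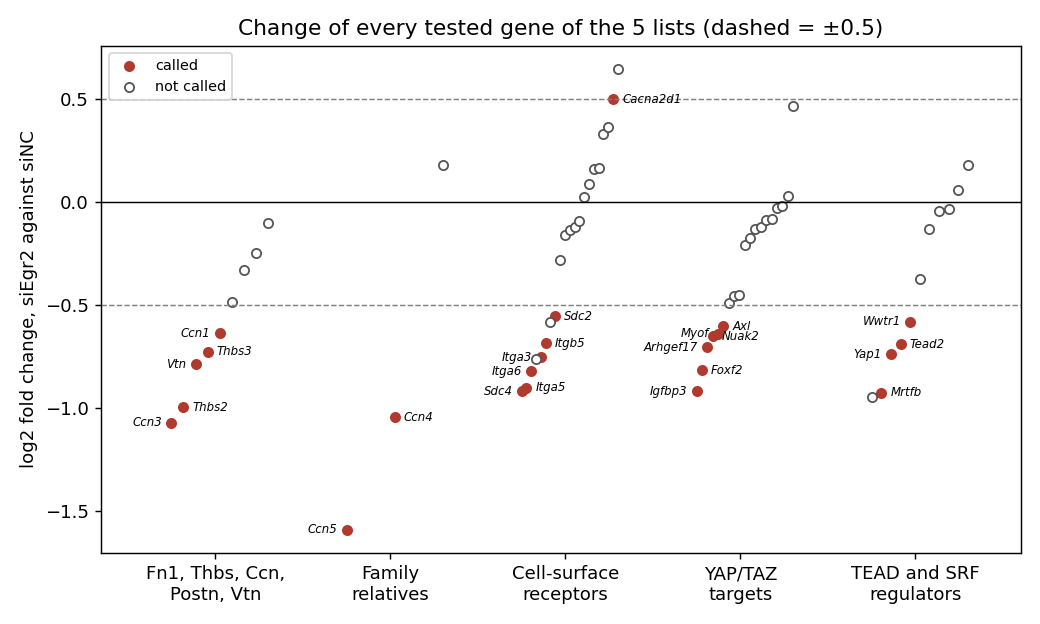
Log2 fold change of siEgr2 against siNC (vertical axis) for every tested gene of the 5 lists, each sorted from low to high. Filled points with names were called, open points were not, and dashed lines mark the threshold of 0.5. Called genes lie below -0.5 in every list, except Cacna2d1 at 0.50 among the receptors.

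Some markers of other cells were also lower in siEgr2, and others were not. All 12 OL lineage markers were tested and their summed level was 10372 to 11397 CPM in siNC and 10764 to 11135 CPM in siEgr2. The astrocyte list was also high, and 5 of its 8 genes were called lower (Gfap, Aqp4, Slc1a3, Slc1a2 and Aldh1l1). Its sum ran from 8046 to 8742 CPM in siNC and from 5113 to 5801 CPM in siEgr2. Of 7 mural cell (pericyte and smooth muscle) markers, 4 were tested and all 4 were called lower (Pdgfrb, Rgs5, Notch3 and Anpep). The mural sum ran from 96.6 to 113 CPM in siNC and from 53.8 to 70.2 CPM in siEgr2, and Higd1b was at 0 in every library. The fall of Vtn, itself a pericyte gene in brain, stood beside that of this list. Among siNC libraries, Vtn was highest in replicate 1 (27.7 CPM) and the mural sum in replicate 6, where Vtn was at 18.1 CPM. Among siEgr2 libraries, both were lowest in replicate 1, while Vtn was highest in replicate 5 and the mural sum in replicate 6. None of the 7 tested fibroblast markers, of 8 listed, was called, and their sum ran from 780 to 1323 CPM in siNC and from 821 to 1005 CPM in siEgr2. All 7 had negative log2 fold changes (median -0.27), and Dcn passed the adjusted p (-0.45, edgeR adjusted p = 0.0304). With library size only, Dcn (-0.63), Col6a3 (-0.79) and Pdgfrl (-0.61) met both thresholds. In siNC, replicate 2 had both the highest fibroblast sum and the highest Fn1, and replicate 4 the lowest of both. In siEgr2, replicate 1 had the lowest of both, while the highest sum was in replicate 5 and the highest Fn1 in replicate 6. Thbs1, Ccn2 and Postn were also highest in siNC replicate 2 and lowest in siNC replicate 4, while Thbs2, Thbs3, Ccn1, Ccn3 and Vtn were highest in other siNC libraries. Endothelial markers were low (28.7 to 36.6 CPM in siNC, 28.1 to 39.1 CPM in siEgr2), with Cldn5 at 0 in every library. Of 8 listed, 4 were tested and 1 was called lower. This was Flt1 (-1.35, edgeR adjusted p = 0.0164), on 3 to 22 counts per siEgr2 library. For microglia, 4 of 8 were tested and 0 called, with sums of 24.8 to 30.1 and 21.4 to 31.8 CPM and with Aif1 and Itgam at 0. For neurons, 6 of 7 were tested and 1 was called lower, with sums of 136 to 155 and 118 to 130 CPM. The called neuron marker was Stmn2 (-0.91, edgeR adjusted p = 0.00105). Most of the neuron sum was Tubb3, at 114 ± 7.16 CPM in siNC and 94.5 ± 4.33 CPM in siEgr2 (-0.27, edgeR adjusted p = 0.000812). The neuron markers did not share a direction. Their median log2 fold change was 0.017, Gad1 had an estimate of -0.74 that did not pass, and Syt1 (0.31, edgeR adjusted p = 0.0266), Rbfox3 (0.41, not passed) and Snap25 (0.40, not passed) had positive estimates. The part of these markers in the results above was not tested. In bulk libraries, fewer cells of a type and less RNA per cell cannot be told apart.

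**Figure D5:**
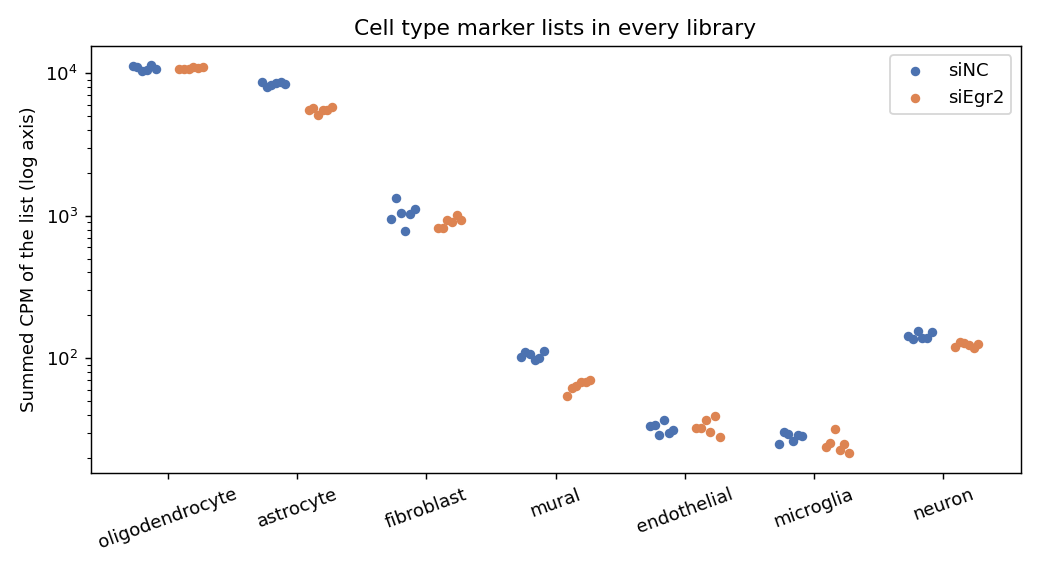
Summed CPM of each cell type marker list (vertical axis, log scale) in the 6 siNC and 6 siEgr2 libraries, 1 point per library. The astrocyte, mural and neuron sums of the groups lie apart, with siEgr2 lower. The mural sum is mostly Pdgfrb and Notch3, and the neuron sum is mostly Tubb3. The sums of OLs, fibroblasts, endothelial cells and microglia overlap.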

How the data were processed

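RNA-seq libraries numbered 12, grouped by title into 6 siNC and 6 siEgr2. The authors deposited raw counts per gene symbol, 1 column per library, without normalization. The submitters' processing notes name the build mm10. The aligner, counting program, annotation and strand setting are not given in the sources used here. One blank entry without counts was left out.

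For the tests, edgeR 4.0.16 was run in R 4.3.3 (filterByExpr, TMM, quasi-likelihood test with robust estimation, no covariate). Single genes were also compared by two-sided exact permutation over 924 assignments of libraries. Exon lengths and coordinates came from GENCODE M21 (GRCm38), promoters from RefSeq. No library copied another (chi-square per gene 7.56 to 39.8 over 30 pairs). The fit was tested on simulated data. Of 100 genes changed 2-fold there, 70 were called, and of 100 changed 4-fold, 91 were called, with 2 false calls. Genes named were the 10 genes, Egr2, up to 4 called genes per list by fold change, and the 5 genes most like Fn1, beside cell type markers by list. Other receptors, YAP and TAZ targets and regulators, and genes that overlap the 10, were named after their values were seen. The genes and lists were chosen with earlier results of these data known. Alternatives were RLE, upper-quartile and library-size scaling, DESeq2 1.42.0, limma-voom (limma 3.58.1), no filter and a stricter filter, a replicate block, thinning, structural RNA genes left out, the adjusted p alone, and each library left out.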

Additional observations from a re-analysis of the deposited data

Results flagged for a closer look

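In a Dixon test of each group of 6 values, 3 of 22 groups held a library apart from the others, and chance flags about 1 in 20 groups. Thbs1 was at 76.3 CPM in siEgr2 replicate 4, from 1021 counts, against 88.4 to 92.8 CPM in the other siEgr2 libraries, and without this library its log2 fold change was -0.45. Thbs4 was at 0.523 CPM in the same library, from 7 counts, against 0 to 0.134 CPM in the others. Ccn3 was at 4.62 CPM in siNC replicate 1, from 159 counts, while the other siNC libraries had 6.17 to 6.82 CPM, and without this library its log2 fold change was -1.14.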

How the results depend on the processing

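The genes called lower (Thbs2, Thbs3, Ccn1, Ccn3 and Vtn) were called under all 23 alternatives, and 0 were called higher under any. Between 5 and 7 of the 10 genes were called lower, 5 to 6 when 1 library was left out. The 7 arose with library size only (Thbs1 at -0.67 and Ccn2 at -0.52 joined) and with the adjusted p alone. Library size only shifted the median of all genes to -0.18 and called 237 genes higher and 1737 lower (88.0% lower, against 437, 844 and 65.9%). It counts ribosomal RNA in the totals. It also called Egr2 (-0.70, edgeR adjusted p = 0.0144) and brought Fn1 to -0.43 (edgeR adjusted p = 0.00876, where the other alternatives gave 0.0703 to 0.265), Tgfbi to -0.0049 and Mtx1 to -0.0066. The adjusted p alone gave 1423 higher and 1877 lower genes, 12 receptors and 11 YAP and TAZ targets, by its construction. Thinning gave 283 higher genes, with fewer counts and 14515 genes tested. Pgf changed sign with thinning (0.25), without siNC replicate 2 (0.11), siNC replicate 6 (0.074), siEgr2 replicate 1 (0.16) and siEgr2 replicate 2 (0.065). It ran from -0.15 to 0.16 with 1 library left out, and the cause was not tested. Same-numbered libraries did not deviate together (r from -0.039 to 0.042, 4 of 12 libraries best matched to their own number). With a replicate block 5 of the 10 genes were called lower, and 349 genes were higher and 775 lower. Depth limits Thbs4, which was too low to be tested.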
